A study of Mus musculus with 6 samples.

Results

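The SOX transcription factors described here are 10 mouse genes, Sox2, Sox4, Sox5, Sox6, Sox7, Sox9, Sox10, Sox11, Sox12 and Sox17, chosen as a gene family and found on the arrays through the RefSeq accessions of their probes. They were covered by 14 of the 55654 distinct probes, and 8 of the 10 genes could be tested. RNA came from spheres, free-floating cell clusters grown in serum-free medium with EGF, bFGF and heparin, from mammary tumors of FRS2beta knock-out mice (knockout, 3 arrays) and of mice heterozygous for FRS2beta (hetero, 3 arrays). FRS2beta is a docking protein of receptor tyrosine kinases, so the single comparison asks how expression in these spheres differs between a genotype without the gene and one that keeps a functional copy. There is no group with both copies, and the tumor model, the strain and the age of the mice are not given in the sources used here. The labels do not say whether the 3 replicates came from separate animals, tumors or cultures, so a p-value here reflects only how these arrays scatter, and that scatter may be technical. The probe of Frs3, the gene of FRS2beta, was well above background on 0 knockout arrays (1.97, 1.97 and 2.91 fluorescence units) and on 1 hetero array (2.61, 16.1 and 6.47), so it checks the labels little.

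SOX proteins bind DNA through an HMG box, a domain that sits in the minor groove and bends the helix, and they act with partner factors at enhancers. The family is sorted into lettered subgroups by similarity of that box. In the mammary gland, SOX9 and SOX10, both of the SOXE subgroup, are known from mouse and human work on luminal progenitors, basal cells and stem-like cells. SOXC proteins (SOX4, SOX11, SOX12) are best known from neural and mesenchymal progenitors, SOXD proteins (SOX5, SOX6) from cartilage, SOXF proteins (SOX7, SOX17, SOX18) from endothelium, and SOX2 from pluripotent and neural stem cells.

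Signal is given in 2 forms. The processed signal is the background-corrected fluorescence of a probe. The scaled log2 signal is its log2 value minus the 75th percentile of the array, so 0 marks that percentile. The 75th percentile was 465 to 487 fluorescence units on the knockout arrays and 404 to 416 on the hetero arrays. A probe with equal processed signal in both genotypes is therefore slightly lower in knockout after scaling. Signals of different probes are not set against each other, because probes differ in how well they hybridise.

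Across all 15834 genes tested with limma, 60.4% passed at a Benjamini-Hochberg adjusted p of 0.05. Knockout was the higher genotype for 27.8% of the genes and the lower one for 32.6%. Against that background 7 of the 8 tested members passed, 3 higher (Sox9, Sox10 and Sox11) and 4 lower (Sox5, Sox7, Sox12 and Sox17). Of the 11 member probes kept, 10 passed in the fit over all probes, 5 of them higher, against 47% of all probes called and 19.3% called higher. Since a large share of all genes passed, passing does not by itself set a member apart. The members differed in size: the differences of Sox10 and Sox11 exceeded 2-fold, which 6.57% of all genes reached upward and 3.52% downward, whereas the 4 lower members differed by 1.16-fold to 1.41-fold. The 3 higher calls held in each of 15 refits, some of which could alter only the adjusted p and not the difference. The lower calls depend on the scaling: scaling to spike-in spots added 0.327 to the median log2 difference of all genes, left 0 members lower and turned the sign of Sox5, Sox7 and Sox12. With that scaling 8209 genes were higher and 1190 lower (87.3% of calls higher), against 4401 and 5160 (46.0% higher) with the 75th percentile.

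**Figure D1:**
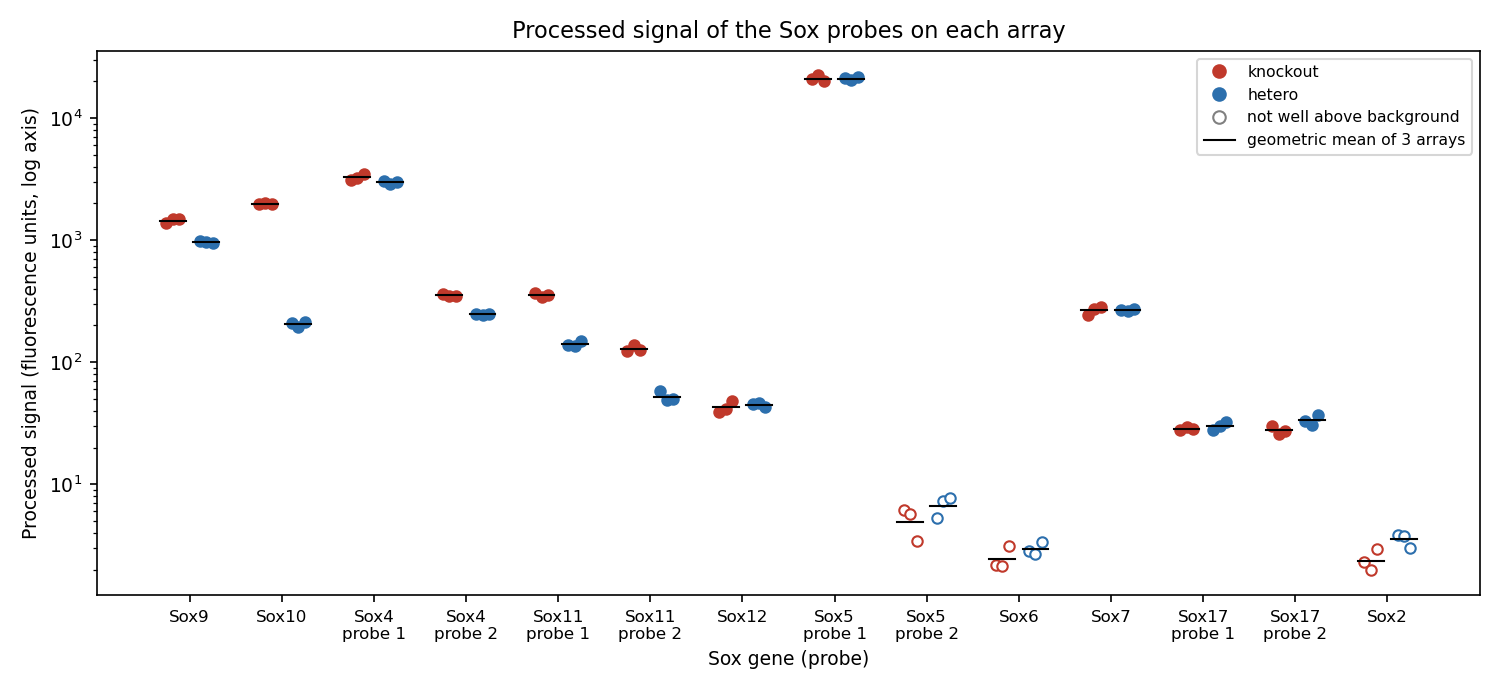
Processed signal (fluorescence units, log axis) of the 14 member probes on each array, knockout left of hetero, grouped by subgroup; probes of a gene are numbered from the brighter in knockout, open points were not well above background and bars are geometric means of 3 arrays. The Sox10 points of knockout lie between 1974.5 and 2015.1 and those of hetero between 195.49 and 211.52, while the Sox5, Sox6 and Sox2 probes with open points lie below 10.

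Sox10, a SOXE factor of neural crest, glia and mammary progenitors, showed the largest difference of the 8 tested members. Its single probe, for transcript NM_011437, had processed signals of 1974.5, 2015.1 and 1974.6 on the knockout arrays, against 211.35, 195.49 and 211.52 on the hetero arrays. All knockout values lay far above all hetero values, and the arrays of a genotype differed little. The scaled log2 signal averaged 2.06 ± 0.02 in knockout and -0.995 ± 0.045 in hetero (SD, n = 3 each). The difference was 3.05 ± 0.03 (SE) on the log2 scale, or 8.31-fold (limma adjusted p = 2.55e-07). Over the 15 refits it ran from 2.67 with normexp background correction to 3.38 with spike-in scaling.

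Sox9, the SOXE factor of cartilage, hair follicle and mammary stem-like cells, was higher in knockout by a much smaller amount. Its probe was spotted 10 times, so that its value on each array is an average. The processed signals were 1372.1, 1479.8 and 1481.8 in knockout, against 987.22, 963.27 and 946.05 in hetero. The groups did not overlap. That held for 7 of the 8 tested members, 3 of them higher in knockout, and for 68.9% of all genes, 31.6% of them all being genes higher in knockout. Scaled log2 signals averaged 1.60 ± 0.03 in knockout and 1.23 ± 0.04 in hetero (SD, n = 3 each). Their difference was 0.36 ± 0.03 (SE), a 1.29-fold rise (limma adjusted p = 0.000331), with a range of 0.34 to 0.69 over the refits. Single Sox9 spots varied within an array by an SD of 0.044 to 0.079 on the log2 scale. The SD between arrays was 0.034 in knockout and 0.041 in hetero. It is an SD of averages over spots, so it is not set against that of single spots.

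The third SOXE gene, Sox8, is not among the 10 members. Its probe was well above background on all 3 knockout arrays (15.4, 14.3 and 24.2 fluorescence units) and on 0 of the 3 hetero arrays (5.25, 3.43 and 4.18). It was at least 1.26-fold higher in knockout (limma adjusted p = 0.00192). The gene was tested only because of its knockout arrays, and that p sets them against hetero values below background, so the bound is the only size given. For such a bound each hetero array enters with the probe's own value or, where that is larger, with the dimmest value that still counted as well above background on that array. With normexp the fitted Sox8 difference was 0.032 and did not pass (adjusted p = 0.684, from 3.84e-05 to 0.684 over its 14 refits).

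The nearest tested genes on either side of Sox9, Sox10 and Sox11 in the RefSeq order were looked up after the members' values were seen. BC006965, a long non-coding RNA gene with no other annotated gene between it and Sox9, had scaled log2 signals of 0.23, 0.20 and 0.12 in knockout and -3.89, -3.72 and -4.03 in hetero. It was 16.7-fold higher in knockout, a log2 difference of 4.07 ± 0.09 (SE, limma adjusted p = 1.56e-06). That is far above the 1.29-fold rise of Sox9 itself, and with normexp the difference was 2.51. On the other side, with 4 untested genes between, the long non-coding RNA 2610035D17Rik was higher by 0.48 ± 0.11 (adjusted p = 0.0113). This call was lost with the replicate numbers as a block (adjusted p = 0.0525, the highest of its 15 refits, from 0.000189). Directly beside Sox10, the RNA polymerase subunit gene Polr2f differed by -0.099 ± 0.031 (limma adjusted p = 0.0377). On its other side the scaffold gene Pick1, with 3 untested genes between, was higher by 0.63 ± 0.09 (adjusted p = 0.00198). The Polr2f call was lost in 10 of 15 refits and its sign turned with spike-in scaling. No tested gene lay next to Sox11. The nearest were the nucleotide kinase gene Cmpk2, 11 untested genes away, which fell by 0.85 ± 0.04, and the collectin gene Colec11, 9 untested genes away, which differed by -0.36 ± 0.17 without passing (adjusted p = 3.17e-05 and 0.116).

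Of the SOXC genes, Sox11 was higher in knockout, Sox4 did not pass and the lower call of Sox12 depended on the refit. The 250 bases before the start of each are shown to set these members side by side. They come from a set of windows before RefSeq gene starts on GRCm38.p6. This set had an entry for 6 of the 10 members. Capitals mark CCAAT, the motif bound by NF-Y, on either strand (CCAAT or ATTGG).
Sox11, chr12:27342719-27342968, minus strand: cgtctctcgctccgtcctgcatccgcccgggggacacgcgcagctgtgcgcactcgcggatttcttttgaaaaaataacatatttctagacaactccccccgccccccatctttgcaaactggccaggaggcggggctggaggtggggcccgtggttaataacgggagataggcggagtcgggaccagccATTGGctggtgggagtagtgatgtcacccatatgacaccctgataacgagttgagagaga
Sox4, chr13:28953700-28953949, minus strand: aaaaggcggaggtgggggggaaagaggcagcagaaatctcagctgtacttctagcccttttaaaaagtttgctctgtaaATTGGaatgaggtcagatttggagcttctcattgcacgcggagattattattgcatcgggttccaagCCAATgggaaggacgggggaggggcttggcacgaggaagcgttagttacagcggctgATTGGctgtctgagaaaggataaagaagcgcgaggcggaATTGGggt
Sox12, chr2:152398047-152398296, minus strand: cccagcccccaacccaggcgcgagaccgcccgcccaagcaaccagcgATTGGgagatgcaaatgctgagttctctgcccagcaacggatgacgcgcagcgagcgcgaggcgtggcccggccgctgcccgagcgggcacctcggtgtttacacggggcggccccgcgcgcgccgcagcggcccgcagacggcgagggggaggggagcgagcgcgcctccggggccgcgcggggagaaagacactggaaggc

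The Sox4 window holds 4 CCAAT matches and the Sox11 and Sox12 windows 1 each. Of 32851 windows of this length before RefSeq gene starts, 33.8% hold at least 1 match and 0.84% hold 4 or more. The SOX core letters ACAAT and ACAAAG, searched on both strands, occur in none of the 3 windows, against 27.7% and 16.5% of all windows. Sox12 has the highest GC content of the 3 windows, with 74.4%, against 58.0% in Sox11 and 50.8% in Sox4. These matches describe the letters only.

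Sox11, which drives neuronal and mesenchymal progenitor programmes in development, was higher in knockout by both of its probes. The brighter probe had processed signals of 369.69, 342.85 and 354.74 in knockout, against 137.18, 134.73 and 150.57 in hetero. The other gave 123.84, 137.7 and 126.78 in knockout, against 58.146, 48.612 and 49.933 in hetero. No knockout array came near the hetero range with either probe. The gene differed by 1.12 ± 0.06 log2 units (SE), or 2.18-fold (limma adjusted p = 4.2e-05), and over all probes the dimmer one differed by 1.10 ± 0.08 (adjusted p = 0.000267). Over the refits the Sox11 difference ran from 0.82 with normexp to 1.45 with spike-in scaling.

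Sox4, a broadly expressed SOXC gene of progenitors, gave no settled direction. Its brighter probe, A_55_P2121613, had scaled log2 signals of 2.75, 2.73 and 2.85 in knockout and 2.89, 2.85 and 2.84 in hetero. The groups overlapped, and the difference of -0.081 ± 0.040 (SE) did not pass (limma adjusted p = 0.137). Its 95% confidence interval ran from -0.18 to 0.020. The second probe, A_55_P2131899, had -0.36, -0.47 and -0.46 in knockout and -0.73 on each hetero array to 2 decimals. It was higher in knockout by 0.30 ± 0.04, without overlap (adjusted p = 0.00273 over all probes). Averaging the probes gave 0.11 (adjusted p = 0.0202, from 0.0202 to 0.608 over the Sox4 refits).

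Sox12, the least studied SOXC gene, lay slightly lower in knockout. Its scaled log2 signals were -3.57, -3.55 and -3.33 in knockout and -3.18, -3.12 and -3.29 in hetero, so the groups were separated by less than the spread within knockout. The difference was -0.28 ± 0.08 (SE, limma adjusted p = 0.0277). Before scaling, the processed signals overlapped (39.187, 41.728 and 47.74 in knockout, 45.529, 46.323 and 42.587 in hetero). The call was lost in 7 of 15 refits, among them those without knockout replicate 1 or 2 or hetero replicate 1 or 2, and the sign turned with spike-in scaling (adjusted p from 0.00273 to 0.786).

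Of the SOXD genes, Sox6 was not detected and Sox5 was read very differently by its probes. The Sox6 probe gave 2.14 to 3.13 fluorescence units in knockout and 2.70 to 3.34 in hetero. The lowest signal counted as well above background was 8.37 to 12.2 units on the knockout arrays and 11.0 to 13.3 on the hetero arrays. Sox6 was therefore below background on all 6 arrays and no fold is given. One Sox5 probe, A_51_P500318, was below background on all 6 arrays too (3.40 to 6.15 units in knockout, 5.28 to 7.69 in hetero). The other, A_55_P2156905, assigned to the same transcript, gave 20955, 22352 and 20003 units in knockout and 21268, 20475 and 21528 in hetero. These processed signals overlapped. After scaling the bright probe was lower in knockout by 0.22 ± 0.04 (SE, limma adjusted p = 0.00679), with scaled log2 signals of 5.49, 5.52 and 5.38 against 5.69, 5.66 and 5.69 in hetero. That call was lost with quantile scaling (-0.0698) and its sign turned with spike-in scaling (0.11; adjusted p from 0.00424 to 0.345 over the refits). Since only 1 of the 2 probes gave a signal, whether Sox5 itself was measured was not tested. Sox13, the third SOXD gene and no member, differed by 0.11 ± 0.05 without passing (adjusted p = 0.1005).

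The SOXF genes, which act in endothelial and endodermal cells, were lower in knockout by small amounts after scaling. Sox17 was read by 2 dim probes. With the one brighter on average over the 6 arrays, its scaled log2 signals were -3.96, -4.25 and -4.12 in knockout and -3.65, -3.73 and -3.48 in hetero. The groups did not overlap, and the difference was -0.49 ± 0.10 (SE), a 1.41-fold fall (limma adjusted p = 0.0076). The other Sox17 probe differed by -0.28 ± 0.06 (adjusted p = 0.0167 over all probes). It was the brighter of the 2 in knockout, so the figures number it ahead of the probe with -0.49. With spike-in scaling the Sox17 difference was -0.16 and did not pass (adjusted p = 0.184, the highest of its 15 refits, from 0.00161). Sox7 had scaled log2 signals of -0.92, -0.84 and -0.75 in knockout and -0.63, -0.62 and -0.60 in hetero, a difference of -0.22 ± 0.05 (adjusted p = 0.0119). Its processed signals, 245.88, 272.51 and 286.0 in knockout and 265.41, 262.49 and 274.37 in hetero, overlapped, and the Sox7 call was lost with median scaling (adjusted p = 0.0877, from 0.00483 to 0.425 over its refits). Sox18 differed by -0.23 ± 0.08 (adjusted p = 0.0477), a call that 11 of 15 refits lost and spike-in scaling turned.

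Endothelial markers, set beside the SOXF genes, included genes higher and genes lower in knockout. Of 13 tested, 4 were higher and 4 lower (27.8% and 32.6% over all genes), with a median log2 difference of -0.064, against -0.033 over all genes. Plvap, a protein of endothelial diaphragms, was higher by 1.71 ± 0.03 (SE), Robo4 by 0.41 ± 0.04, and Kdr, the VEGF receptor, and Cldn5 were lower by 0.43 ± 0.04 and 0.38 ± 0.03 (limma adjusted p 1.1e-06 to 0.000704). The Kdr and Cldn5 calls were lost with spike-in scaling (adjusted p = 0.382 and 0.694, the highest of their refits, from 0.000196 and 9.83e-05). Their summed scaled signal was 42.4 to 43.8 in knockout and 42.8 to 43.1 in hetero. This sum adds, on each array, the processed signals of a list's tested genes after division by the array's 75th percentile. It is set only against the same sum on other arrays, and bright probes weigh most in it: Kdr made up 33.4% to 35.1% of it in knockout and 45.7% to 47.4% in hetero. In bulk RNA, fewer cells of a type and less RNA per cell cannot be told apart.

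Sox2, the pluripotency and neural stem cell factor often measured in sphere cultures, was not detected. Its probe gave 2.31, 1.98 and 2.92 fluorescence units in knockout and 3.87, 3.78 and 3.03 in hetero, all below the lowest signal counted as well above background. No fold is given, because both groups lie under that limit. Of the related SOXB genes, Sox3 was below background on all 6 arrays as well. Sox1, read by 2 probes, was lower in knockout by 0.31 ± 0.06 (SE, limma adjusted p = 0.00735), and this sign turned with spike-in scaling (0.014). Sox14 differed by 0.16 ± 0.35 without passing (adjusted p = 0.717). Of the 2 probes of Sox21, the brighter was lower in knockout, at -0.19 ± 0.06. The dimmer was below background on the 3 hetero arrays and at least 1.48-fold higher in knockout. It was tested only because of its knockout arrays, so a lower call was not open to it. The Sox21 call by the brighter probe was lost in 6 of 15 refits, among them those without knockout replicate 1 or 3 or hetero replicate 1 or 3, and its sign turned in 2 (limma adjusted p from 0.00566 to 0.298). Sox15 differed by 0.63 ± 0.21 (adjusted p = 0.0463), was lost in 8 of 14 refits and was 0.0029 with normexp, and Sox30 was below background on all arrays. Of the 9 Sox genes outside the member list, 7 were tested, 2 of them higher and 3 lower in knockout. Over all genes 27.8% were higher and 32.6% lower. Sox8, 1 of the 2 higher, was tested only because of its knockout arrays.

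**Figure D2:**
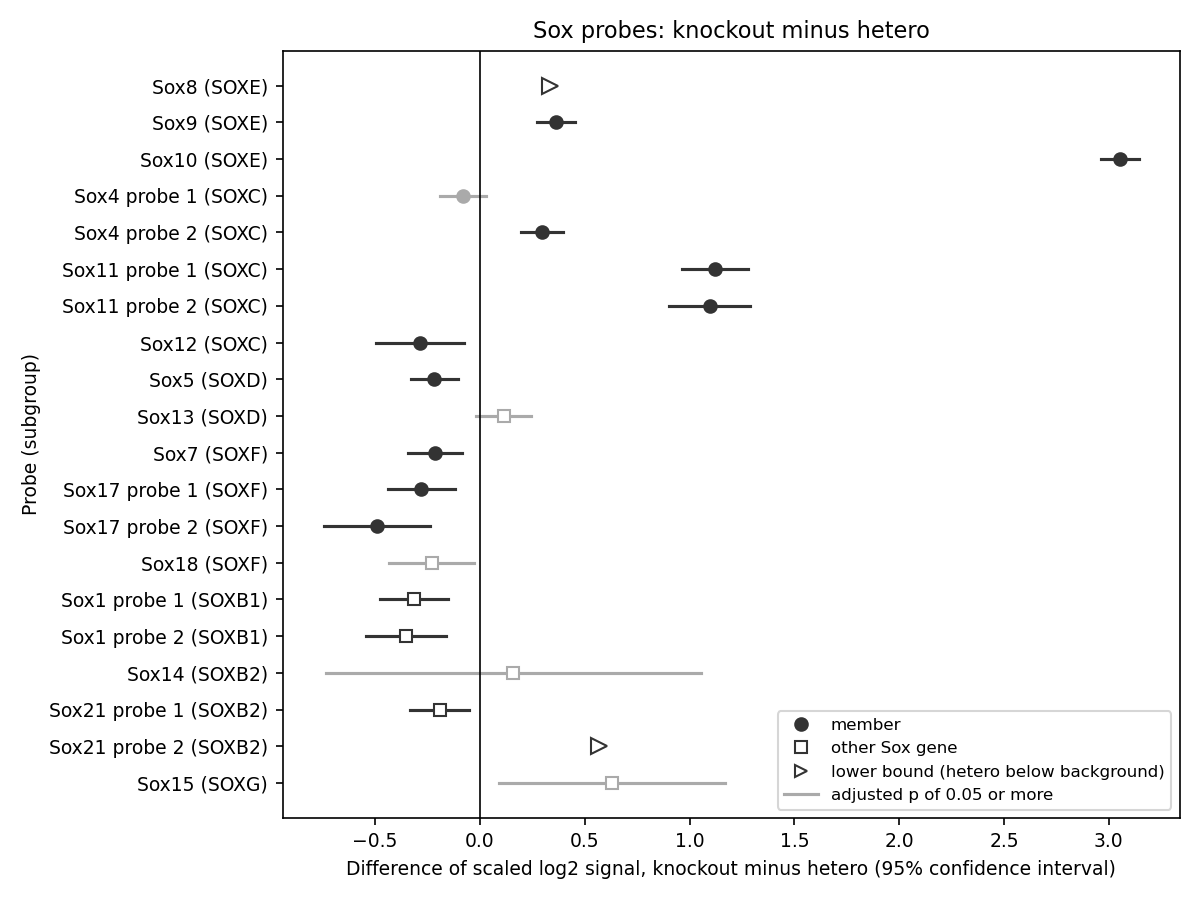
Difference of scaled log2 signal, knockout minus hetero, of each Sox probe above background on at least 3 arrays, with its 95% confidence interval; circles are members, squares other Sox genes, and grey marks an adjusted p of 0.05 or more over all probes. Triangles mark lower bounds, with no interval, for the Sox8 probe and the second Sox21 probe, which were below background on all hetero arrays. Of the probes with an interval, Sox10 and both Sox11 probes lie furthest to the right, the Sox4 probe pair falls on both sides of 0, and the SOXF probes lie left of 0.

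**Figure D3:**
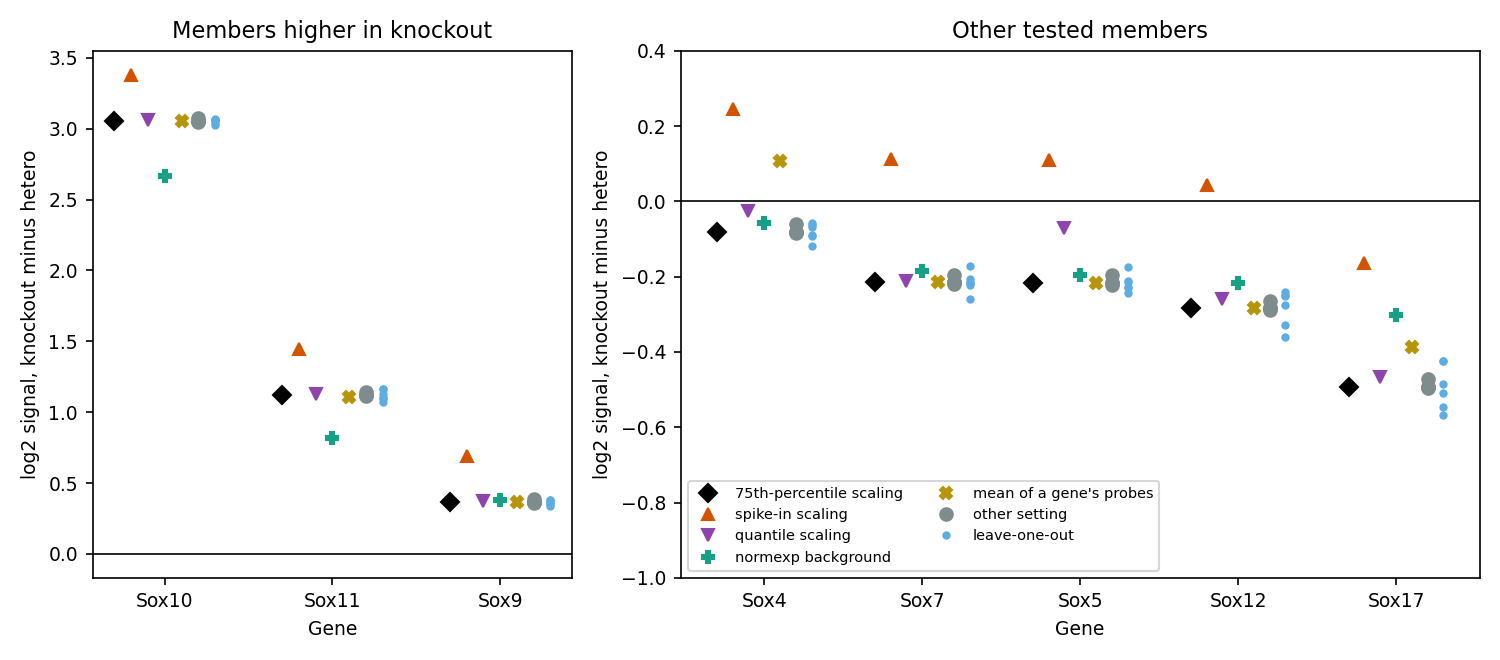
Log2 difference, knockout minus hetero, of the 8 tested members under the 75th-percentile scaling and 15 refits, with a separate vertical axis in each panel. Sox10, Sox11 and Sox9 stay above 0 throughout, whereas spike-in scaling lifts Sox4, Sox7, Sox5 and Sox12 above 0 and the mean of a gene's probes lifts Sox4.

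Markers of the cell types that the spheres could hold were set beside the SOX values. Over all genes, 27.8% were higher and 32.6% lower in knockout. All 12 luminal keratin and adhesion markers were higher in knockout, with a median log2 difference of 3.45 and a summed scaled signal of 132 to 135 in knockout against 12.4 to 12.9 in hetero. Krt8, Krt7 and Krt19 (keratins) and Cldn7 (a claudin of tight junctions) differed by 3.25 ± 0.02, 3.65 ± 0.02, 4.08 ± 0.03 and 3.31 ± 0.02 (SE). The Sox10 difference, 3.05, lay below this median and above those of the luminal progenitor (3.02) and basal (1.69) lists. Of 12 luminal progenitor markers 11 were higher and 1 lower, with a median of 3.02 and sums of 371 to 390 in knockout against 74.0 to 74.5 in hetero. Tspan8, Cd24a, Lcn2 and Wfdc18 differed by 3.46 ± 0.02, 3.44 ± 0.03, 2.38 ± 0.03 and 3.73 ± 0.05. The 1 lower gene was Kit, at -0.49 ± 0.03. Elf3 of the keratin and adhesion list and Csn3 of the progenitor list were tested only because of their knockout arrays. With these genes at their bound the medians were 3.39 and 2.91. Of 11 tested basal and myoepithelial markers 8 were higher and 2 lower (median 1.69, sums of 117 to 119 in knockout and 38.8 to 41.3 in hetero), among them Krt14, Krt5, Krt17 and Acta2 by 2.97 ± 0.02, 2.45 ± 0.02, 2.01 ± 0.02 and 1.69 ± 0.02. The basal markers Snai2 and Mylk differed by -0.72 ± 0.04 and -0.63 ± 0.07. Trp63 differed by -0.0039 ± 0.0597 without passing (limma adjusted p = 0.962), and of its 2 kept probes 1 was called higher. The part of these epithelial genes in the Sox10, Sox11 and Sox9 differences was not tested.

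Sox10 is also a marker of Schwann cells and melanocytes, so other genes of those cells were set beside it. Of 14 such markers on the array 10 were tested, 2 of them higher and 4 lower in knockout, with a median of -0.27. Those counts are close to the 27.8% higher and 32.6% lower of all genes. The summed scaled signal was 8.87 to 9.03 in knockout, against 10.4 to 10.9 in hetero, and Mlana alone made up 43.8% to 44.6% of it in knockout and 46.5% to 48.4% in hetero. S100b, Ngfr and Mlana fell by 0.87 ± 0.04, 0.52 ± 0.02 and 0.33 ± 0.04 (SE), the Ngfr and Mlana calls being lost with spike-in scaling (adjusted p = 0.129 and 0.963, the highest of their refits, from 8.43e-06 and 0.000194). Mbp, a myelin protein gene, was higher by 1.91 ± 0.04, and of its 3 probes 2 were called higher and 1 lower. The melanocyte enzyme genes Dct and Tyrp1 were below background on all 6 arrays, and the Schwann cell cadherin gene Cdh19 and the neural crest factor gene Foxd3 were above it on 2 knockout arrays and on 0 hetero arrays.

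Most macrophage and fibroblast markers lay lower in knockout, against 32.6% of all genes lower and 27.8% higher. All 11 tested macrophage markers fell (median -1.81, sums of 8.67 to 8.74 in knockout and 24.2 to 24.6 in hetero), with Lyz2, Ctss, Adgre1 and C1qc lower by 1.95 ± 0.02, 1.65 ± 0.02, 2.48 ± 0.03 and 1.81 ± 0.02 (SE). Of 12 fibroblast markers 8 fell and 3 rose (median -0.53, sums of 1744 to 1802 in knockout and 2276 to 2501 in hetero). Thy1, a surface glycoprotein gene, was among the 3, at 2.29 ± 0.02, while the differences of Pi16, the receptor gene Pdgfra and the matrix gene Dpt were -1.30 ± 0.03, -1.32 ± 0.03 and -1.61 ± 0.02. The part of these markers in the lower scaled signals of Sox5, Sox7, Sox12 and Sox17 was not tested. Before scaling, the mean processed signal in knockout was 1.0006 times that in hetero for Sox5 and 1.0027 times for Sox7. It was 0.957 times for Sox12, and 0.825 and 0.955 times for the 2 Sox17 probes.

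Genes that SOX proteins act on or with were taken as lists and counted against the 27.8% of all genes higher and 32.6% lower in knockout. Of 11 tested cartilage genes that SOX9 with SOX5 and SOX6 activates in chondrocytes, 7 were higher and 1 lower, with a median of 1.64 (1.33 with genes below background in a group at their bound). The minor collagen genes Col9a1, Col11a1 and Col9a2 differed by 2.29 ± 0.08, 1.98 ± 0.07 and 1.74 ± 0.04 (SE). The matrilin gene Matn4 differed by 1.64 ± 0.07 (limma adjusted p 1.69e-06 to 2.23e-05 over these genes). Of the 2 kept probes of Col9a1, 1 was called higher and 0 lower. Col2a1, the collagen most closely tied to SOX9, was below background on all hetero arrays and at least 1.97-fold higher in knockout, a call lost in 5 of 14 refits, among them those without knockout replicate 1, 2 or 3 or hetero replicate 2. The proteoglycan gene Acan fell by 0.36 ± 0.12 (limma adjusted p = 0.0436), a call lost in 8 of 15 refits, including 5 of the 6 that leave out a replicate (adjusted p up to 0.761). Of the 7 higher genes, Col9a3 and Col2a1 were tested only because of their knockout arrays, so a lower call was not open to them. Col9a3 was at least 9.04-fold higher in knockout. The summed scaled signal of this list was 4.19 to 4.51 in knockout and 1.40 to 1.42 in hetero.

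Of 12 tested neural crest and glial targets of SOX10, 5 were higher and 3 lower in knockout, with a median of 0.0063. Mia, a secreted protein of cartilage and melanoma, had scaled log2 signals of 3.78, 3.75 and 3.81 in knockout and 0.86, 0.82 and 0.92 in hetero, a difference of 2.92 ± 0.04 (SE, limma adjusted p = 3.82e-07). Mbp was higher, while the myelin gene Pmp22 and the endothelin receptor gene Ednrb fell by 1.37 ± 0.03 and 0.65 ± 0.06. The receptor tyrosine kinase genes Erbb3 and Ret were below background on all hetero arrays and at least 1.24-fold and 1.92-fold higher in knockout. Both are among the 5 higher genes but were tested only because of their knockout arrays. A lower call was not open to them. The Erbb3 call was lost in 4 of 14 refits, among them those without knockout replicate 1 or 3, and the Ret call in 1, with normexp. These targets are known from neural crest cells, and the list holds few genes tied to SOX10 in mammary epithelium.

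Among SOX partners and related HMG-box factors, 4 of 10 tested were higher and 4 lower, with a median of 0.0063. Lef1 and Tcf7, HMG-box mediators of Wnt signalling, differed by 3.17 ± 0.08 and 2.64 ± 0.09 (SE), and Tcf7l1, a repressor of the same family, and the POU factor gene Pou3f1 fell by 0.91 ± 0.03 and 0.21 ± 0.04 (limma adjusted p 3.43e-06 to 0.00449). The Tcf7 call was lost when its probes were averaged (1.60, adjusted p = 0.142, the highest of its refits, from 1.99e-08), and the Pou3f1 sign turned with spike-in scaling. Of 11 genes linked to SOX2 in pluripotent and neural progenitor cells, 3 were higher and 6 lower, with a median of -0.19. Spike-in scaling adds about 0.327 to each difference, which is more than the size of this median. The neural progenitor genes Fabp7 and Nes and the surface marker gene Prom1 differed by 3.02 ± 0.11, 1.94 ± 0.03 and 2.19 ± 0.02, while Lefty1 fell by 0.61 ± 0.03 (adjusted p 2.55e-07 to 1.74e-05). The pluripotency factor gene Pou5f1 was above background on 1 array. Of 4 tested SOX4 and SOX11 targets, Ezh2 and Stmn1 rose by 0.31 ± 0.04 and 0.084 ± 0.027, Tead2 fell by 0.071 ± 0.020 and Tubb3 differed by -0.35 ± 0.19 (adjusted p 0.000923 to 0.163). The Stmn1 and Tead2 calls were lost in 9 and 11 of 15 refits, and the Tead2 sign turned with spike-in scaling.

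**Figure D4:**
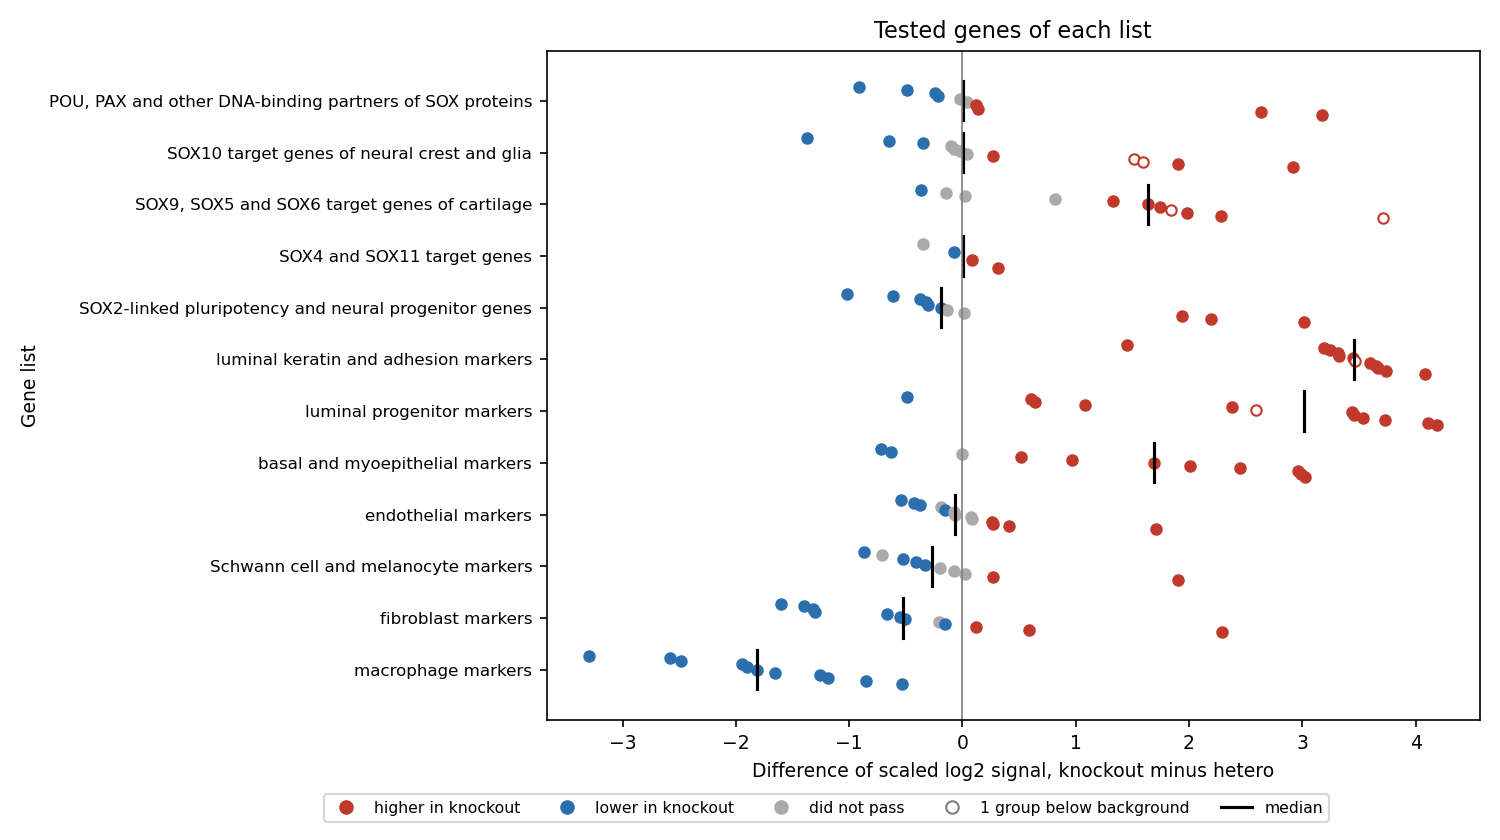
Difference of scaled log2 signal, knockout minus hetero, of each tested gene of 12 lists; red points were higher and blue points lower in knockout at an adjusted p of 0.05, grey points did not pass, open points are fitted values, not bounds, of genes with 1 group below background, and bars are list medians. The epithelial lists have medians of 3.45, 3.02 and 1.69 and the cartilage list 1.64, while the macrophage list lies at -1.81.

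The tested genes whose pattern over the 6 arrays lay closest to Sox10 and Sox11, by Euclidean distance of scaled log2 signals centred per gene, are given as a description, since the genotypes set most of the pattern. Anxa8, an annexin gene, Plekhb1, and Tfap2c, an AP-2 factor of luminal cells, lay at distances of 0.067, 0.078 and 0.089 from Sox10. Their log2 differences were 3.04 ± 0.03, 3.01 ± 0.04 and 3.097 ± 0.020 (SE). Nearest to Sox11 were Art1, Myl9, a myosin light chain gene, and the histone gene H2bc1, at 0.102, 0.102 and 0.106. They differed by 1.08 ± 0.07, 1.10 ± 0.04 and 1.14 ± 0.03.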

How the data were processed

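Total RNA was labelled with Cy3 and hybridised to 1-colour Agilent arrays, per the labels. The submitters' processing notes name Agilent Feature Extraction 10.7.3.1 for the scans. The deposited intensity used here is its processed signal on a linear scale, per the file headers, without scaling between arrays. Each array held 62976 spots. Control spots (3671) and 102 to 129 flagged spots per array were left out, no spot was saturated, and spots of a probe were averaged as log2 values. Probes were named through their RefSeq accession (27220 probes, 20648 genes); 28434 stayed unnamed. Names and gene order came from a GRCm38.p6 table; the array header names mm9, so no gene coordinates were taken from it.

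Log2 signals were scaled to the 75th percentile. Probes well above background on at least 3 of 6 arrays were kept (35422), which kept 11 of the 14 member probes, and the brightest kept probe stood for a gene. The comparison of genotypes used limma 3.58.1 (lmFit, then eBayes) under R 4.3.3, adjusted over 15834 genes at 0.05, and in a second fit over all kept probes. The fit was tested on simulated data. For 46598 probes the authors also deposited a table; dividing the processed signal by 1 number per array gave its values to within 1% for 100% of singly spotted probes. Its column medians were 0.163, 0.159 and 0.159 for knockout and 0.161, 0.159 and 0.169 for hetero. It is linear and not centred. No source used here says how its probes were picked.

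Precision is limited by having 3 arrays per group. All lay on 1 slide and in 1 scan. Arrays of a genotype correlated at 0.995 to 0.998 and arrays of different genotypes at 0.966 to 0.971 across genes, which are not independent replicates. The members and gene lists were chosen with earlier results of these data known. Named were all Sox genes, up to 4 tested genes per list by smallest p, and the 3 genes nearest in pattern to each called member with a fold of at least 2; further names in the lists, and the neighbours of Sox genes, were chosen after their values were seen. The files hold no mean signal, so normexp (offset 50) was run on the median signal. Same-numbered samples of the genotypes did not deviate together (correlations of -0.115, -0.0174 and -0.00554). Weak correlations cannot exclude shared handling, and the labels do not say whether the numbers pair the samples.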

Additional observations from a re-analysis of the deposited data

How the results depend on the processing

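The tests were repeated under 15 settings: quantile, median or spike-in scaling, normexp background, no filter, probes above background on all 6 arrays, the mean of a gene's probes, the deposited table, the replicate block, and each replicate left out. Sox9, Sox10 and Sox11 kept direction and call in every one. With spike-in scaling 8209 genes were higher and 1190 lower, 0 members were lower, and the log2 differences were 0.25 for Sox4, 0.11 for Sox5, 0.11 for Sox7, 0.043 for Sox12 and -0.16 for Sox17, of which none passed; they were 0.014 for Sox1, 0.097 for Sox18, 0.13 for Sox21, 0.11 for Pou3f1, 0.26 for Tead2 and 0.23 for Polr2f. This scaling adds about 0.327 to each difference by construction. Quantile and median scaling left 2 members lower each: with quantile scaling Sox5 (-0.0698) and Sox12 (-0.26) did not pass, and with median scaling Sox7 (-0.20) and Sox12 (-0.26). The mean of a gene's probes gave 0.11 for Sox4, which then passed. It gave 0.35 for Sox21, whose dimmer probe was below background on the hetero arrays. With the replicate block Sox12 (-0.28) did not pass; 8510 genes were called, against 9561 without it, and no other member call changed. Leaving out 1 replicate gave 8562 to 8951 called genes, 3 members higher and 3 to 5 lower. Over these 6 refits Sox12 ran from -0.36 to -0.24 and did not pass in 4, Sox4 ran from -0.12 to -0.058 and passed without knockout replicate 3, and Sox14 ran from -0.15 to 0.39. For the genes named that are no members, 950 of 1045 refits kept direction and side of the threshold. Of the others, 80 lost the call, 6 gained it and 9 turned sign. Refits of Kit, Csn3, Elf3, Col9a3, Snai2, Mylk and Trp63 are not in this count. Causes were not tested. Dim probes limit the reading of Sox8, Sox12, Sox15 and Sox17, and normexp, whose offset of 50 lies above the arrays' median processed signals (31.1 to 38.1), shrinks dim differences by construction.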
